A study of Rattus norvegicus with 8 samples.

Results

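Transcripts of 10 genes of Toll-like receptor signalling, NF-kB feedback and the inflammasome were described in peripheral whole blood of male Wistar rats. The members were Tlr2, Tlr4, Cd14, Myd88, Nfkbia, Tnfaip3, Il1b, Tnf, Nlrp3 and Casp1. They were chosen by gene symbol, as every probe set that the annotation of the Affymetrix rat array maps to exactly 1 of them. This gave 10 probe sets for 9 genes, of 31042 probe sets tested and 14217 named genes. Tnf had 2 probe sets, and Nlrp3, the sensor of the inflammasome that bears its name, was not analysed here because no probe set carried its symbol.

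The rats were bought at 7 weeks of age and acclimated for a week. The high-fat group was then fed a high-fat diet (Quick fat) for 8 weeks, and the mulberry group the same diet with 1% mulberry leaf powder, with 10 rats per diet and 4 arrays from each. Both groups therefore ate the high-fat diet, and a normal-diet group was not analysed here. Blood was taken on day 56 after an overnight fast, and the arrays of a diet are called biological replicates. The labels leave unsaid whether each array was hybridised with RNA of a single rat, so p-values speak only for the spread among these 8 samples, which may be technical. In whole blood, fewer cells of a type and less RNA per cell cannot be told apart.

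Toll-like receptors recognise microbial molecules on and inside leukocytes. TLR4 senses bacterial lipopolysaccharide, which CD14 hands to it, and TLR2 senses bacterial lipoproteins. Most of these receptors signal through the adaptor MyD88 to the IkB kinases, which free NF-kB to switch on cytokine genes such as Il1b and Tnf together with its own inhibitors. Inflammasome sensors activate caspase-1, which cuts the interleukin-1 beta precursor into its secreted form. In blood this machinery is best known from monocytes and neutrophils.

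The deposited log2 values hardly varied between arrays, by a compression of unknown size that need not be the same for every probe set. The members' SD over the 8 arrays ran from 4.02e-06 (the dimmer Tnf probe set) to 0.000999 (Nfkbia) on that scale, with a median of 7.74e-05, against a median of 5.31e-06 over all probe sets. Each value is therefore given as the distance from the probe set's own mean over the 8 arrays, in units of its SD over them. A difference is mulberry minus high-fat in these SD units and cannot exceed 1.87 in size. The SE and interval are those of the log2 difference divided by the same SD, so an interval can reach past this bound. Where an array is left out or the values are rescaled, the SD is that of the values then used. The unit then differs from the one over all 8 arrays, and sizes are not strictly comparable between settings. Every deposited value lay between 5.17 and 15.26. The members' mean levels ran from 6.07 (Tnf 1391384_at) to 9.47 (Il1b), and whether a transcript was detected above background was not tested.

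Blood taken for array 4 of the high-fat group had the highest level of most of these transcripts, and the diets themselves did not separate. High-fat replicate 4 was the highest of the 8 arrays for Tlr2, Tlr4, Cd14, Myd88, Nfkbia, Tnfaip3 and Casp1, which is 7 of the 10 member probe sets. Over all probe sets that vary, this array was the highest for 14.4%. Most of those vary less than the members, whose SD percentiles ran from 81.1 to 99.4, apart from Tnf 1391384_at at 40. The share among equally variable probe sets was not taken. Il1b and Tnf stood apart, with their highest values on mulberry arrays. This pattern was noticed after the values were seen and is a description of 1 array. The count was 7 after centring on the median deviation, 5 after median centring (Cd14 and Myd88 left) and 3 after quantile normalization (Casp1, Cd14 and Nfkbia kept it), when the array was the highest for 16.7%, 2.44% and 2.6% of all probe sets.

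**Figure D1:**
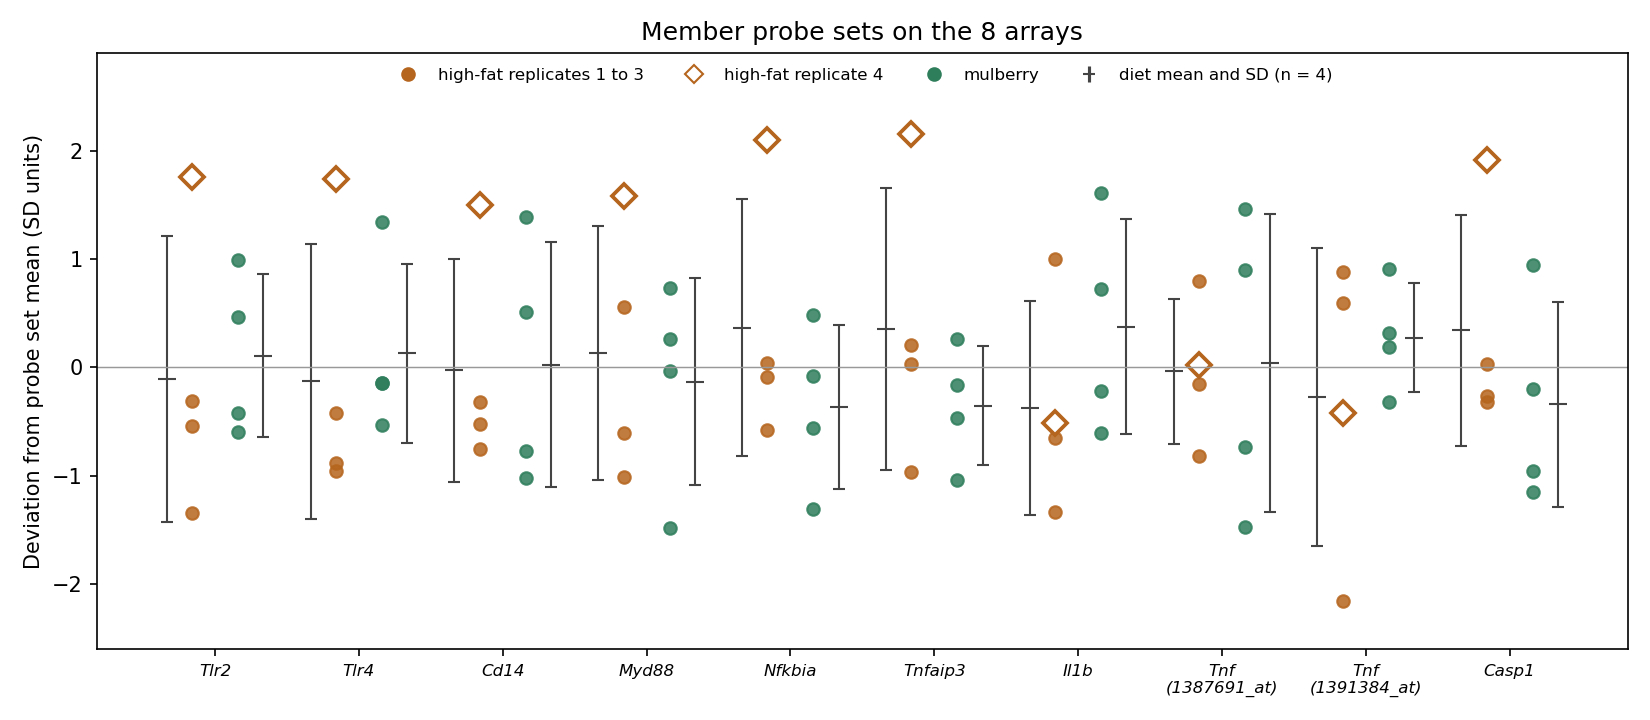
Deviation of each member probe set from its own mean over the 8 arrays, in SD units (y axis), for the 10 probe sets (x axis). Filled circles are arrays, the open diamond is high-fat replicate 4, and bars give the diet mean and SD (n = 4). The diamond lies above all other arrays for 7 probe sets, up to 2.15 for Tnfaip3, and within the range of the others for Il1b and both Tnf probe sets.

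The receptors came first in the pathway. Tlr2 (probe set 1392280_at) stood at -0.54, -1.34, -0.31 and 1.76 on high-fat replicates 1 to 4, and at 0.99, -0.43, -0.59 and 0.46 on mulberry replicates 1 to 4. The high-fat arrays held both the highest and the lowest value, and the diets overlapped. The difference was 0.218 ± 0.713 (SE, n = 4 per diet), with a 95% interval from -1.48 to 1.91 (limma, unadjusted p = 0.769, adjusted p = 1). Tlr4 (1387982_at) stood at -0.96, -0.88, -0.42 and 1.74 on the high-fat arrays and at -0.53, -0.14, -0.14 and 1.34 on the mulberry arrays. Replicate 4 of each diet was the highest of its group, and the remaining 6 arrays lay below the mean. The Tlr4 difference was 0.261 ± 0.711, with an interval from -1.43 to 1.95 (limma, unadjusted p = 0.725, adjusted p = 1).

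Without high-fat replicate 4 the receptor differences were larger, in units of the SD over the arrays kept. They were 1.10 ± 0.627 for Tlr2 (interval from -0.443 to 2.65, unadjusted p = 0.131) and 1.15 ± 0.613 for Tlr4 (interval from -0.365 to 2.66, unadjusted p = 0.112), each with a limma adjusted p of 1. Neither difference was past the threshold with or without this array. Tlr1, the partner of TLR2 on triacylated lipoproteins, and the RNA-sensing receptors Tlr7 and Tlr8 also had their highest value there, at 1.92, 1.86 and 1.91, so that all 5 measured Toll-like receptors did. This count was 4 after median centring and 2 after quantile normalization.

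Cd14 (1368490_at), the lipopolysaccharide co-receptor of monocytes, stood at -0.75, -0.32, -0.52 and 1.5 on the high-fat arrays and at 1.39, -1.02, -0.77 and 0.51 on the mulberry arrays. High-fat replicate 4 and mulberry replicate 1 were the high arrays, close to each other, and 1 lay in each diet. The diet means were therefore nearly equal, at -0.0251 ± 1.03 and 0.0251 ± 1.13 (SD, n = 4 each), with a difference of 0.0502 ± 0.718 (SE; limma, unadjusted p = 0.946, adjusted p = 1). Its interval ran from -1.66 to 1.76. Without high-fat replicate 4 the difference was 0.648 ± 0.728 (limma adjusted p = 1).

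Myd88 (1374468_at), the adaptor shared by most Toll-like receptors and the interleukin-1 receptor, stood at -1.01, 0.56, -0.60 and 1.58 on the high-fat arrays. On the mulberry arrays it stood at 0.26, -0.04, -1.49 and 0.74, so the lowest value lay in the mulberry group and the highest in the high-fat group. The difference was -0.263 ± 0.711, with an interval from -1.96 to 1.43 (limma, unadjusted p = 0.723, adjusted p = 1). It turned to 0.264 ± 0.769 without high-fat replicate 4.

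The inhibitors are themselves known NF-kB targets that end the response. Nfkbia encodes IkB alpha, which holds NF-kB in the cytoplasm, and Tnfaip3 encodes A20, a ubiquitin-editing enzyme that acts above the IkB kinases. Nfkbia (1389538_at) stood at 0.04, -0.09, -0.58 and 2.1 on the high-fat arrays and at 0.48, -0.56, -1.31 and -0.08 on the mulberry arrays. High-fat replicate 4 stood alone at the top, and the other 7 arrays overlapped between diets. The difference was -0.735 ± 0.66, with an interval from -2.31 to 0.836 (limma, unadjusted p = 0.304, adjusted p = 1). Tnfaip3 (1385641_at) stood at -0.97, 0.03, 0.20 and 2.15 on the high-fat arrays and at -0.17, -1.04, -0.47 and 0.26 on the mulberry arrays. Again only high-fat replicate 4 was clear of the rest. The Tnfaip3 difference was -0.707 ± 0.665, with an interval from -2.29 to 0.874 (limma, unadjusted p = 0.324, adjusted p = 1).

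Without that array the difference was -0.276 ± 0.768 for Nfkbia and -0.203 ± 0.772 for Tnfaip3 (limma adjusted p = 1 for each). These are in units of the SD over the arrays kept, not of the SD over all arrays. Both differences were smaller in size without this 1 array, although the unit is not the same in both settings.

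The promoters of the members were searched for the kappa B consensus, the 10-base element that NF-kB dimers bind, on both strands. The windows run from 250 bases before to 50 bases after the RefSeq gene start (build GRCr8). A match was present for Tlr2, Nfkbia and Tnfaip3 and not in the windows of the other 7 members, against 7.51% of the 33469 promoters of this length. The 3 windows are shown because they hold the matches, which are in capitals. The window of Tlr2 lies at chr2:171504508-171504807, minus strand, that of Nfkbia at chr6:78597023-78597322, minus strand, and that of Tnfaip3 at chr1:15543930-15544229, minus strand.
Tlr2: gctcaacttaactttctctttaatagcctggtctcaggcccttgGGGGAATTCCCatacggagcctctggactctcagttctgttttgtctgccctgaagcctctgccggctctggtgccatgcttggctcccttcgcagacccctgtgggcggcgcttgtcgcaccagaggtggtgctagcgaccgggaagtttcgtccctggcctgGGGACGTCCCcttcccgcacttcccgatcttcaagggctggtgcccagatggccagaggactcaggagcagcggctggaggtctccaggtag
Nfkbia: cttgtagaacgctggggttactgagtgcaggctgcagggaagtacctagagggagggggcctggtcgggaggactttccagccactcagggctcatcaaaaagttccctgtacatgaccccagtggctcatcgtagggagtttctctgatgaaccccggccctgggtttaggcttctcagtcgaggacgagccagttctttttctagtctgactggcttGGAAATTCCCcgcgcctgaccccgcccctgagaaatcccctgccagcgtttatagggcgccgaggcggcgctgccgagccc
Tnfaip3: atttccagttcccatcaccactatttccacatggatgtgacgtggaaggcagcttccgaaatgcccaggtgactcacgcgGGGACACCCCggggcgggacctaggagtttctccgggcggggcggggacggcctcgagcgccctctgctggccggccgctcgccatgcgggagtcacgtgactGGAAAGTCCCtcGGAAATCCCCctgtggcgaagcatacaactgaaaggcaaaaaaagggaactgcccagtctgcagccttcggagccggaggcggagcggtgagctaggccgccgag

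The Nfkbia match begins 31 bases before the gene start. Tnfaip3 holds 3 matches, beginning 170, 67 and 55 bases before its start, and the last 2 are separated by a pair of bases. Tlr2 also holds 3, at 206, 205 and 42 bases before its start, of which the first 2 overlap. At least 2 matches were present in 1.13% of all promoters. A match was present in 11 of 19 promoters (57.9%) of the listed NF-kB subunits, kinases and inhibitors, in 8 of 22 (36.4%) of the target cytokines and effectors and in 4 of 20 (20%) of the adaptors and proximal kinases. It was present in 1 of 12 (8.33%) of the Toll-like receptors, 1 of 19 (5.26%) of the inflammasome genes and 0 of 5 co-receptors and chaperones. These lists include the members. A match is a description of the letters, and binding was not measured. Sites outside the windows were not searched, so a window without a match does not show that a gene lacks one.

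The cytokines did not have their highest value on high-fat replicate 4. Il1b (1398256_at), the interleukin-1 beta precursor, stood at -0.66, -1.34, 1.00 and -0.51 on the high-fat arrays and at 0.72, -0.22, -0.60 and 1.61 on the mulberry arrays. Its highest value lay on mulberry replicate 4 and its lowest on high-fat replicate 2, with overlap between the diets. The difference was 0.754 ± 0.657, the largest in size among the members, with an interval from -0.81 to 2.32 (limma, unadjusted p = 0.29, adjusted p = 1; exact permutation p = 0.286). Without high-fat replicate 4 it was 0.671 ± 0.725.

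Tnf, the tumour necrosis factor gene, was read by 2 probe sets that agreed little, with a Pearson correlation of 0.351 over the 8 arrays. Probe set 1387691_at stood at 0.80, -0.82, -0.15 and 0.02 on the high-fat arrays and at -0.74, 0.90, 1.46 and -1.48 on the mulberry arrays. The mulberry arrays spanned the whole range, and the difference was 0.0742 ± 0.719 (limma, unadjusted p = 0.921, adjusted p = 1). Probe set 1391384_at stood at 0.59, -2.15, 0.88 and -0.42 on the high-fat arrays and at 0.91, 0.31, 0.19 and -0.32 on the mulberry arrays. Here high-fat replicate 2 was far below the others, and the difference was 0.548 ± 0.706 (limma, unadjusted p = 0.464, adjusted p = 1). The intervals ran from -1.64 to 1.78 and from -1.13 to 2.23. The differences were 0.0877 ± 0.777 and 0.47 ± 0.774 without high-fat replicate 4.

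Casp1 (1369186_at), the protease of the inflammasome, stood at -0.26, 0.03, -0.32 and 1.92 on the high-fat arrays and at -0.20, -0.95, -1.15 and 0.94 on the mulberry arrays. Replicate 4 was the highest array of each diet, and the other 3 high-fat arrays lay within the mulberry range. The difference was -0.681 ± 0.669, with an interval from -2.27 to 0.91 (limma, unadjusted p = 0.343, adjusted p = 1). It was -0.228 ± 0.77 without high-fat replicate 4.

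Across the members, 4 of 10 probe sets had a lower mulberry mean, and the median difference was 0.0622. Over all probe sets tested, 47.3% had a lower mulberry mean and the median difference was 0.0559. None of the member probe sets passed the limma threshold of 0.05 after Benjamini-Hochberg adjustment, and none had an unadjusted p under 0.05. Over all probe sets limma called 0 (0%), and 1352 (4.36%) had an unadjusted p under 0.05. An exact permutation test per probe set also called 0 after adjustment, with 781 at an unadjusted p under 0.05. No member separated the diets without overlap, against 2.52% of all probe sets. The intervals were wide, reaching beyond 1 SD unit on at least 1 side for every member, so the data do not show that the diets were alike.

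**Figure D2:**
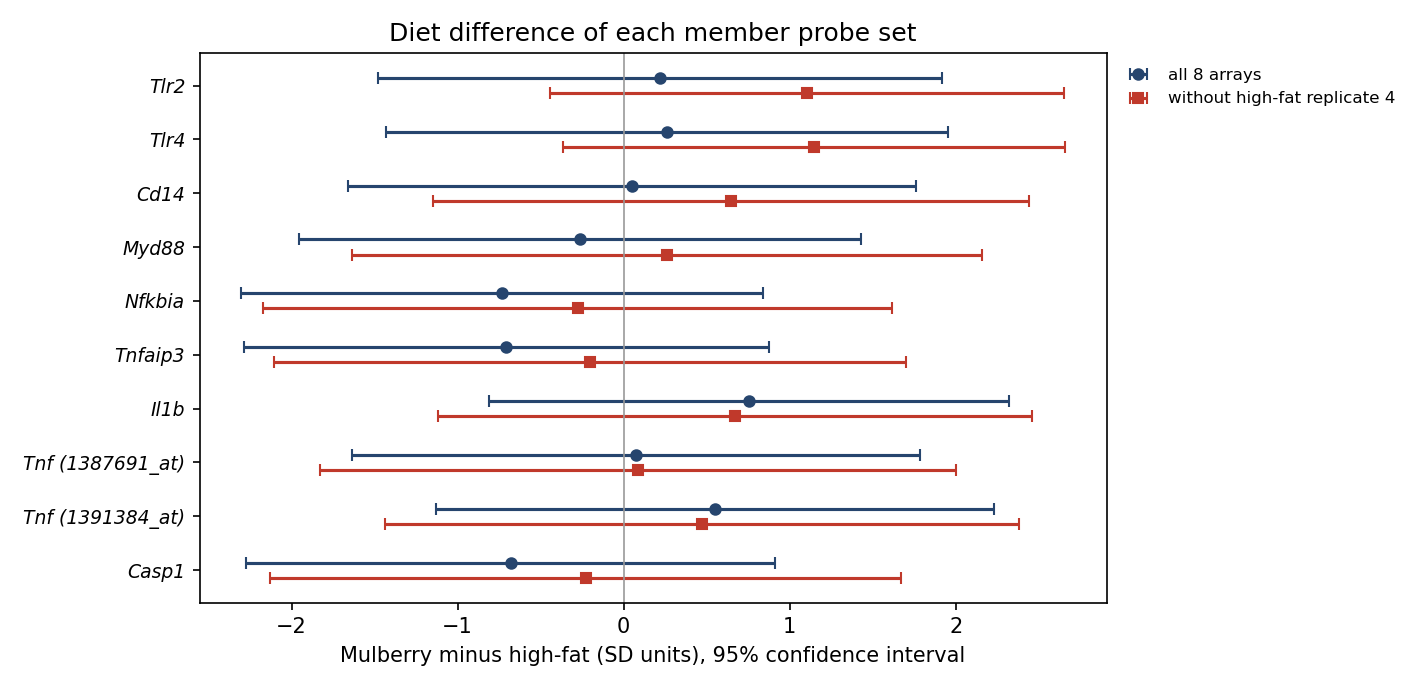
Mulberry minus high-fat difference of each member probe set in SD units (x axis) with its 95% confidence interval from limma, with all 8 arrays (circles) and without high-fat replicate 4 (squares). All intervals include 0. Leaving out the array moves Tlr2 from 0.218 to 1.10 and Tlr4 from 0.261 to 1.15, and Nfkbia from -0.735 to -0.276. Squares are in units of the SD over the arrays kept, so their sizes are not strictly comparable with those of the circles.

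The members other than the cytokines were positively correlated with each other over the arrays. Among the 9 genes (for Tnf, probe set 1387691_at), 36 pairs were compared, and the median Pearson r was 0.627, against 0.0005 over all pairs of the 14217 genes that vary. An r of at least 0.7 was reached by 15 of the 36 pairs (41.7%), against 4.18% of all gene pairs. These members vary more than most probe sets, and pairs of equally variable genes were not taken, with or without high-fat replicate 4. All 15 lay among the 7 genes without Il1b and Tnf, whose 21 pairs ran from 0.548 to 0.875. The 15 pairs with Il1b or Tnf ran from -0.66 to 0.407. Tnf as read by probe set 1387691_at was negatively correlated with each of the other 8 genes. Pairs with the other Tnf probe set, whose r with this one was only 0.351, were not taken. The negative sign is therefore shown for 1387691_at and not for Tnf as a gene. The low values of Il1b rested in part on high-fat replicate 4. Its r with the 7 genes ran from -0.0598 to 0.407 on all 8 arrays. Without that array it ran from 0.222 (Nfkbia) to 0.803 (Tlr2), with a median of 0.52. It stayed low with Nfkbia and with Myd88 (0.323). All these values share the same 8 arrays, and the 7 genes were grouped after their values were seen.

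None of the 36 pairs passed after adjustment over them (smallest adjusted exact permutation p 0.0568 for Pearson and 0.13 for Spearman, two-sided), while 15 had an unadjusted Pearson p under 0.05. Tlr2 and Cd14 had the highest r, at 0.875 (exact permutation p = 0.00578, adjusted p = 0.0568), with a Spearman rho of 0.69 (exact permutation p = 0.0694, adjusted p = 0.23). Their r was 0.515 without the 2 arrays farthest from the Tlr2 median and 0.795 without high-fat replicate 4. Myd88 and Casp1 had an r of 0.841 (exact permutation p = 0.00789, adjusted p = 0.0568) and a rho of 0.905 (exact permutation p = 0.00456, adjusted p = 0.13). Their r was 0.544 without the 2 arrays farthest from the Myd88 median and 0.711 without high-fat replicate 4. Nfkbia and Tnfaip3 had an r of 0.779 (exact permutation p = 0.0469, adjusted p = 0.111), a rho of 0.357 (exact permutation p = 0.389, adjusted p = 0.519), and an r of 0.0954 without the 2 arrays farthest from the Nfkbia median, so that relation rests on those arrays.

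Without high-fat replicate 4 the median r of the 36 pairs was 0.418, against 0.004 over all gene pairs, and 3 pairs reached 0.7, against 5.16% of all gene pairs. These were Tlr2 with Il1b (0.803), Tlr2 with Cd14 (0.795) and Myd88 with Casp1 (0.711). The 21 pairs without the cytokines then had a median of 0.476, against 0.743 with the array. Each diet alone holds 4 arrays, too few for a correlation within it.

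Markers of monocytes and of natural killer cells stood highest on the same array. The mean of 15 monocyte and macrophage markers was -0.138, -0.539, -0.234 and 1.55 on the high-fat arrays and 0.294, -0.43, -0.808 and 0.302 on the mulberry arrays. The mean of 10 natural killer cell markers was 0.0386, -0.141, -0.33 and 2.14 on the high-fat arrays, and from -0.615 to -0.181 on the mulberry arrays. The median of the 9 member genes was -0.656, -0.321, -0.32 and 1.74 on the high-fat arrays and 0.262, -0.425, -0.604 and 0.507 on the mulberry arrays. The same array had the lowest platelet score, at -1.53, and its neutrophil score was 0.249, within the range of the other arrays (-1.38 to 0.731). The 18 hybridization control probe sets averaged -1.07 on it and the 27 polyA control probe sets -1.23, low but not alone, since high-fat replicate 1 had -1.44 and -1.01. The part of cell makeup and of labelling in the member values was not tested.

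**Figure D3:**
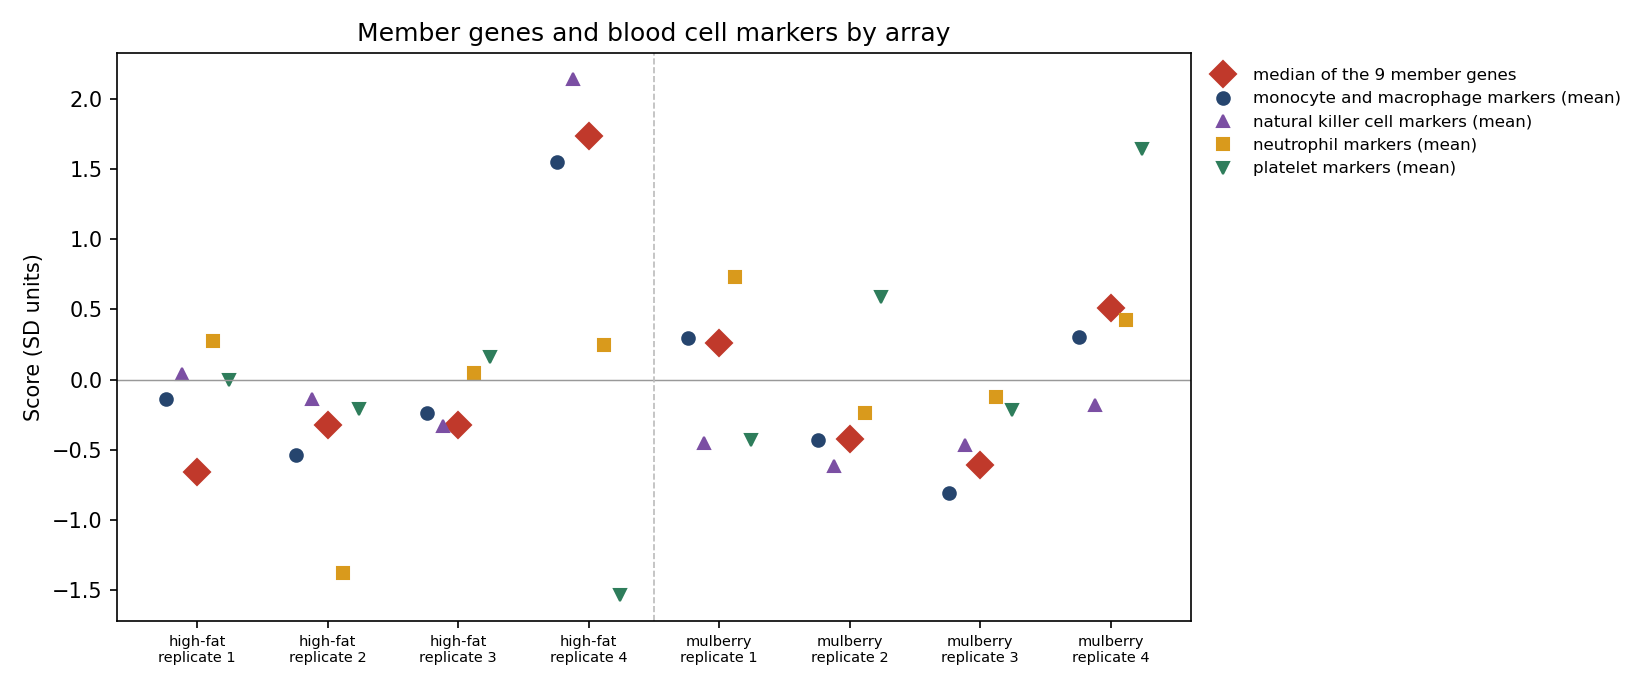
Median deviation of the 9 member genes (diamonds) and mean scores of monocyte, natural killer, neutrophil and platelet markers (other symbols), in SD units (y axis), on each of the 8 arrays (x axis). On high-fat replicate 4 the member median (1.74), the monocyte score (1.55) and the natural killer score (2.14) are all at their highest and the platelet score (-1.53) is at its lowest.

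None of the marker scores differed between the diets after adjustment over the 7 lists (two-sided exact permutation tests over 70 assignments, smallest possible p 0.0286). The monocyte score differed by -0.32 (exact permutation p = 0.657, adjusted p = 0.767), the neutrophil score by 0.401 (exact permutation p = 0.514, adjusted p = 0.72) and the natural killer score by -0.854 (exact permutation p = 0.0571, adjusted p = 0.4). B cell (-0.616), erythroid (-0.357), T cell (0.00871) and platelet (0.794) scores had adjusted exact permutation p values from 0.6 to 0.971.

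The 7 members highest on high-fat replicate 4 had Pearson r with the monocyte score, which is also highest there, from 0.743 (Tlr4) to 0.941 (Nfkbia). Without that array these r values were lower, at 0.337 for Tnfaip3, 0.389 for Tlr4, 0.552 for Myd88, 0.725 for Casp1, 0.788 for Cd14 and 0.789 for Nfkbia, and Tlr2 had the highest. The natural killer score, highest on the same array, gave r from 0.588 (Cd14) to 0.873 (Nfkbia), with 0.864 for Tnfaip3 and 0.84 for Casp1. Without the array its r ran from -0.255 (Tlr2) to 0.588 (Casp1). Of 63 relations between the 9 genes and 7 scores, none passed after adjustment by either coefficient. For Nfkbia the exact permutation p was 0.00196 (adjusted p = 0.0617), rho was 0.833 (exact permutation p = 0.0154, adjusted p = 0.463), and r was 0.621 without the 2 arrays farthest from the median score. For Tlr2 the r was 0.91 (exact permutation p = 0.00149, adjusted p = 0.0617), rho was 0.881 (exact permutation p = 0.00724, adjusted p = 0.456), and r was 0.92 without the 2 farthest arrays. Il1b followed the monocyte score weakly (r = 0.206, exact permutation p = 0.64, adjusted p = 0.874; rho = 0.476, exact permutation p = 0.243, adjusted p = 0.766), although r was 0.762 without the 2 arrays farthest from the median score. Its r with the neutrophil score was 0.657 (exact permutation p = 0.063, adjusted p = 0.331; rho = 0.524, exact permutation p = 0.197, adjusted p = 0.766; 0.393 without the 2 farthest arrays).

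With the monocyte score as a covariate in the limma fit, the Tlr2 difference was 0.649 and that of Tlr4 0.617, while those of Nfkbia and Casp1 were -0.344 and -0.306. Tlr2 had an unadjusted p of 0.0153 in that fit (limma), the lowest of any member under any alternative. No member passed the adjusted threshold in that fit.

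The other genes of the pathway were read from 6 lists, with 1 probe set per gene and the members left out of the counts. High-fat replicate 4 was the highest array for 3 of 3 other Toll-like receptors, 7 of 9 co-receptors and chaperones (77.8%), 6 of 18 NF-kB subunits, kinases and inhibitors (33.3%) and 6 of 15 inflammasome genes (40%). It was so for 4 of 20 adaptors and proximal kinases (20%) and 9 of 32 target cytokines and effectors (28.1%), against 17.2% of all genes. The shares were 12 of 15 for the monocyte list and 9 of 10 for the natural killer list, and no more than 1 gene in each of the neutrophil, erythroid, T cell, B cell and platelet lists. Among the genes at the top there were Ly96, the TLR4 partner MD-2 (1.96), the inflammasome adaptor Pycard (2.16), Casp4, the inflammatory caspase of the non-canonical pathway (2.18), and the NF-kB subunit Nfkb2 (2.24). These 4 were chosen after their values were seen.

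**Figure D4:**
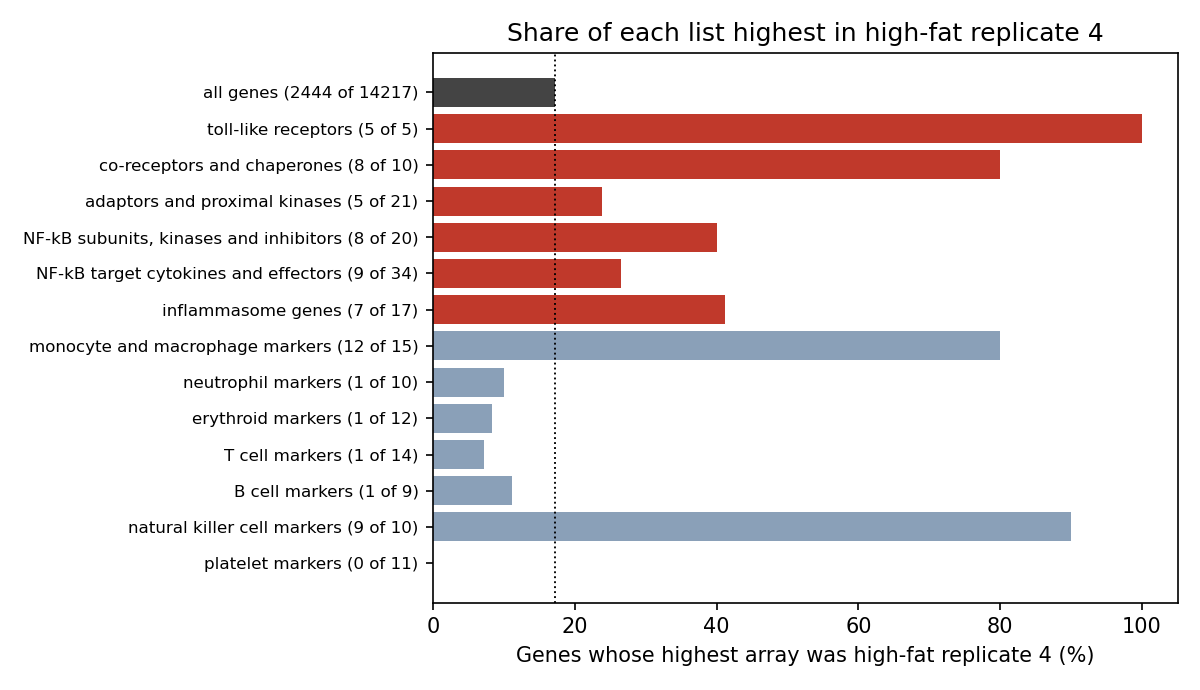
Share of the genes of each list, members included, whose highest array was high-fat replicate 4 (x axis, percent, with counts beside each list), for the pathway lists (red), blood cell marker lists (blue) and all genes (black bar and dotted line, 17.2%). The Toll-like receptor (5 of 5), co-receptor (8 of 10), monocyte (12 of 15) and natural killer (9 of 10) lists have the largest shares.

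Between the diets, no gene of these lists passed the limma threshold (adjusted p = 1 for each gene named here). Lower mulberry means were found for 2 of 3 other Toll-like receptors, 9 of 9 co-receptors and chaperones, 10 of 20 adaptors and proximal kinases, 13 of 18 NF-kB subunits, kinases and inhibitors, 20 of 32 target cytokines and effectors and 10 of 15 inflammasome genes, against 7238 of 14217 genes (50.9%). The list medians were -0.162, -0.646, -0.011, -0.375, -0.197 and -0.217 in that order, against -0.019 over all genes. With the members counted, the Toll-like receptor median was 0.218. Without high-fat replicate 4 the counts were 0, 6, 10, 9, 16 and 8. Median centring, which raises the mulberry arrays against the high-fat arrays for nearly all genes, gave lower means in 2, 4, 2, 3, 5 and 4 genes, and in 611 of all genes.

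**Figure D5:**
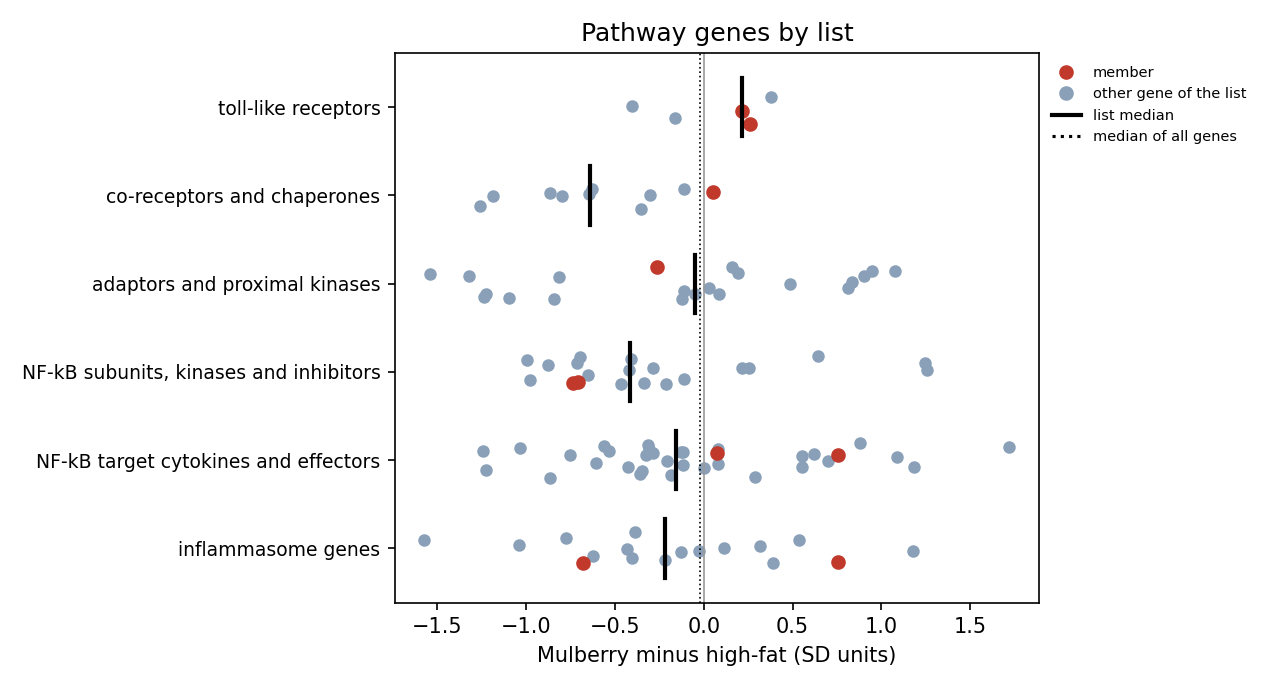
Mulberry minus high-fat difference in SD units (x axis) of each measured gene of the 6 pathway lists (rows). Red points are members, blue points other genes, thick bars list medians with members and the dotted line the median of all genes (-0.019). Points of every list lie on both sides of 0, with list medians from -0.638 (co-receptors and chaperones) to 0.218 (Toll-like receptors).

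Among the 3 genes of smallest unadjusted p in each list, Plaur, the urokinase receptor of activated leukocytes, differed most. It had diet means of -0.86 and 0.86 and a difference of 1.72 ± 0.329 (limma, unadjusted p = 0.00134, adjusted p = 1). Its diets did not overlap, and the difference was 1.71 without high-fat replicate 4, 1.29 after median centring and 1.08 after quantile normalization. The diets also did not overlap for 343 of all 14217 genes. A gene picked for a small p tends to show this, so it adds no support here or below. Of the co-receptors, the scavenger receptor gene Cd36 differed by -1.26 ± 0.531 (unadjusted p = 0.0509) without overlap, and Unc93b1, the chaperone of endosomal Toll-like receptors, by -1.19 ± 0.555 (unadjusted p = 0.0713). Cd36 and Unc93b1 kept their sign after median centring and quantile normalization. Ly86, which encodes the partner of CD180, differed by -0.867 ± 0.636, and turned to 0.079 and 0.749.

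Tirap, the adaptor that brings MyD88 to TLR2 and TLR4, differed by -1.54 ± 0.412 (limma, unadjusted p = 0.0077) without overlap, but by 0.734 after median centring. Tab3, a subunit of the TAK1 kinase complex, differed by -1.32 ± 0.553 (1.08 after median centring), and Irak3, the inhibitory IRAK kinase, by -1.23 ± 0.541 (-1.08). Nek7, the kinase that NLRP3 needs for assembly, differed by -1.57 ± 0.398 (unadjusted p = 0.00583) without overlap, and turned to 0.889 after median centring and 0.707 after quantile normalization. The NLRP3-binding protein gene Txnip differed by -1.04 ± 0.596, turning to 0.707 after quantile normalization, and Nlrp6 by -0.776 ± 0.662, turning to 0.962 after median centring.

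The IkB genes named here did not share a sign. Nfkbib, which encodes IkB beta, differed by 1.25 ± 0.536 and Nfkbiz, the nuclear IkB zeta, by 1.26 ± 0.627, against -0.735 for Nfkbia. Nfkbib and Nfkbiz were picked for a small unadjusted p, while 13 of the 18 non-member genes of their list had a lower mulberry mean. The kinase gene Chuk (IKK alpha) differed by -0.977 ± 0.612 and was near 0 after median centring (-0.0007). Of the targets, the maturation marker gene Cd83 differed by -1.25 ± 0.535 and the apoptosis inhibitor gene Birc3 by -1.23 ± 0.543 (0.3 after median centring). Among the remaining receptors, Tlr1, Tlr7 and Tlr8 differed by 0.376 ± 0.722, -0.404 ± 0.701 and -0.162 ± 0.715.

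The genes most like each member over the 8 arrays were taken by Pearson r among 14216 others, a search that yields high values by its size. They were Gpnmb (0.967) and Tmem256 (0.967) for Tlr2, Tspo (0.948) and Dtnb (0.939) for Tlr4, and Ptp4a1 (0.979) and Dmxl2 (0.973) for Cd14. For Myd88 they were Septin2 (0.989) and Alkbh5 (0.984), for Nfkbia Anxa5 (0.992) and Il10ra (0.989), and for Tnfaip3 Prkag2 (0.96) and Klrb1b (0.958). For Casp1 they were Vasp (0.989) and Arfip1 (0.988), for Il1b Xrcc2 (0.949) and Snx21 (0.948), and for Tnf Ddx59 (0.977) and Musk (0.974). Without high-fat replicate 4 these r values ran from 0.823 (Prkag2 with Tnfaip3) to 0.985 (Septin2 with Myd88).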

How the data were processed

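Values for 8 arrays were read from the authors' deposited series table, as log2 probe set summaries. Per the labels' protocols, RNA came from TRIzol LS extraction with RNeasy clean-up, and 200 ng of it went into the GeneChip 3' IVT Express kit. How probe sets were summarised and normalized, and why the values are compressed, is not given in the sources used here. Of 31099 probe sets, 57 manufacturer controls were left out. Names came from the platform annotation (20826 probe sets with 1 symbol, 436 with several, 9780 unnamed here), and the 9 measured members matched RefSeq (GRCr8) by gene number and symbol. Nothing was renormalized.

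Diets were compared by a two-sided moderated test from limma 3.58.1 (R 4.3.3), with lmFit, then eBayes without a trend, adjusted over all 31042 probe sets. Exact permutation tests used 70 assignments of arrays, or 40320 pairings for correlations (Python 3.11.15, numpy 2.4.6). Lists used the probe set of highest mean per gene, and 188 of 230 symbols on 13 lists matched. The members and lists were chosen with earlier results of these data known. Every member is given, then the 2 most correlated genes per member and the 3 non-members of smallest unadjusted p per pathway list. Alternatives were other scalings, a dim-probe filter, other tests, a replicate block, control and cell-score covariates, and leaving out each array. Signal over background was not used. On 31038 simulated probe sets for this comparison, limma called 50% of those moved by 4 within-diet SDs and 94% of those moved by 8, with 7 unmoved probe sets called.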

Additional observations from a re-analysis of the deposited data

Results flagged for a closer look

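Of 34 groups of 4 arrays looked at for 1 array far from the other 3 (Dixon's ratio of the gap to the range above its 95% critical value), 5 had one, and chance alone gives about 1 in 20. Casp1 on high-fat replicate 4 stood at 1.92 SD units (ratio 0.843), and the natural killer score on the same array at 2.14 (0.851). The T cell score of high-fat replicate 2 was 0.809, above its group (0.851), and the neutrophil score of that array was -1.38, below its group (0.861). The erythroid score of mulberry replicate 4 was 0.454, above its group (0.844). The cause was not tested for any of them.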

How the results depend on the processing

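The member probe sets called stayed at 0 under all 19 alternatives, with a lowest limma adjusted p of 0.162. The lowest limma unadjusted p was 0.0153, for Tlr2 with the monocyte score as covariate. Over all probe sets the count called was 0 under 18 of them and 12 after quantile normalization, with 534 to 2492 at an unadjusted p under 0.05. The 4 member probe sets with a lower mulberry mean became 7 under quantile normalization, became 2 under median centring, and ran from 3 to 8 when 1 array was left out, 8 being without high-fat replicate 2. The count of Toll-like receptors with a lower mulberry mean went from 2 to 0 without high-fat replicate 4, an alternative added after the data were seen. Without that array the counts of the other 5 pathway lists moved by no more than 1.5 times. With all 8 arrays kept and the members left out, the counts of all 6 lists also moved by no more than 1.5 times. This alternative was also added after the data were seen.

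Of 189 member differences under alternatives, 161 kept their sign, 27 turned and 1 became 0 (Il1b after quantile normalization). Each is in units of the SD of the values used in that setting, so sizes are not strictly comparable between settings. Nfkbia and Casp1 kept their sign throughout, from -1.03 to -0.276 and from -1.11 to -0.101. Quantile normalization turned Cd14 to -0.0578 and the Tnf probe sets 1387691_at and 1391384_at to -0.591 and -0.707. Median centring turned Myd88 to 1.23 and Tnfaip3 to 0.316. Median deviation centring turned Cd14 to -0.0309 and Tnf 1387691_at to -0.00906. With the polyA controls as covariate Cd14 was -0.117, with the monocyte score Myd88 was 0.0747 and Tnf 1387691_at -0.0847, and with the neutrophil score Tlr2 was -0.269 and Cd14 -0.287. With 1 array left out, differences ran from -0.213 to 1.10 for Tlr2, -0.157 to 1.15 for Tlr4, -0.451 to 0.648 for Cd14, -0.652 to 0.264 for Myd88, -0.461 to 0.667 for Tnf 1387691_at and -0.147 to 0.924 for Tnf 1391384_at. The cause of these turns was not tested.

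The correlations do not settle whether the replicate numbers pair the arrays. Same-numbered arrays of the diets had correlations of -0.0454, -0.0491, 0.239 and 0.155 over probe sets. Arrays of different numbers ran from -0.193 to 0.139, so replicates 3 and 4 gave the highest values and replicates 1 and 2 did not. With the replicate block, 0 probe sets were called, 0 of them members, and 1728 had an unadjusted p under 0.05. Among the members 1 did, Casp1 (limma, unadjusted p = 0.0409, adjusted p = 0.892), whose limma unadjusted p without the block was 0.343 (adjusted p = 1).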
